A study of Mus musculus with 7 samples.

Results

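Open chromatin of adipose tissue macrophages after a switch from high-fat to regular diet, which the study treats as weight loss (HFD-RD, 2 libraries), was compared with that during ongoing high-fat feeding (HFD, 3 libraries). The assay was ATAC-seq, a measure of how readily a transposase cuts and tags the DNA of a nucleus, applied to FACS-sorted macrophages of adult male C57Bl/6J mice. HFD-RD mice were given a diet of 60% lipid for 11 weeks and then a regular diet of 10% lipid for 9 weeks, and HFD mice were given the diet of 60% lipid for 11 weeks. The series title points to inflammatory and blood-vessel-related programmes of macrophages in formerly obese mice as its subject. Another 2 libraries, from mice on the regular diet for 20 weeks (RD-RD), entered the statistical fit to help estimate the spread and are not described. All 5898 regions of the 7 deposited tables were compared, from 5 of the 7 libraries of the series. The groups differed in more than the diet change: the feeding of HFD-RD mice lasted 20 weeks in all and that of HFD mice 11 weeks, so diet, elapsed time and age cannot be told apart.

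The grouping followed the titles, the diet labels and the column names, which give the same group for each library. The source names go against them: both HFD-RD libraries have a source name of HFD mice, and none of the 3 HFD libraries has one. Labels do not say whether libraries came from separate mice, whether mice were pooled, or which fat depot was used, so p-values measure the spread between these libraries, which may be technical. The authors had kept in the tables only regions that differed in at least 1 of the comparisons between the diets. Among them 403 regions lie in the 4 tables read, from their values, as holding this comparison. The other 5495 were read as kept for a difference of HFD-RD or HFD from RD-RD, which rests on values also compared here. For both sets the tests below are thus not independent of the authors' choice.

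Adipose tissue macrophages take up lipid and dying adipocytes, and obesity adds recruited, lipid-laden cells to the resident ones. Resident macrophages of many tissues carry scavenger receptors and C-type lectins, such as CD163, LYVE1 and the CD209 family, and the chemokine CCL2 attracts monocytes. Oxidative stress is met by a set of enzymes that make glutathione, degrade heme and remove peroxides, many of them targets of the transcription factor NRF2. An accessible region marks an active or poised promoter or enhancer. It is assigned here to the nearest gene by the deposited annotation, and its signal is not that gene's expression. Some regions lie more than 100 kb from the gene they are assigned to.

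Gene starts were the place with the smallest share of higher regions in HFD-RD macrophages, and 4 starts that fell are shown because they stand for a CpG-poor and a CpG-rich kind of promoter. The sequences are the 250 bases before the start of transcription from RefSeq (GRCm38.p6), on the gene's strand, with CpG dinucleotides in capitals. Cd209d and Cd209f encode C-type lectins, lie on the minus strand of chromosome 8 (chr8:3878500-3878749 and chr8:4105765-4106014) and hold 3 and 2 CpG in these bases. Kif21a encodes a kinesin motor protein (chr15:91049952-91050201, minus strand, 23 CpG), and Neo1 encodes neogenin, a receptor of the netrin and repulsive guidance molecule families (chr9:59036442-59036691, minus strand, 45 CpG).
Cd209d: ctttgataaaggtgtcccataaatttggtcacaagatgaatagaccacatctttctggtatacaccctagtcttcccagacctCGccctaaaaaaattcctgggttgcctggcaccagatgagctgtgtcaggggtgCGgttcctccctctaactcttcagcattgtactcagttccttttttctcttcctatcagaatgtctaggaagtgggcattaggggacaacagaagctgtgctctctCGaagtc
Cd209f: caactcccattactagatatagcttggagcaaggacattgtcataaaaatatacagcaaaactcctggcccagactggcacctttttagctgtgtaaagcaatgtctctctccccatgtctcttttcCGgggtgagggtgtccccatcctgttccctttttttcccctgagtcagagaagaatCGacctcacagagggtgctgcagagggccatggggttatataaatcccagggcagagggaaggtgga
Kif21a: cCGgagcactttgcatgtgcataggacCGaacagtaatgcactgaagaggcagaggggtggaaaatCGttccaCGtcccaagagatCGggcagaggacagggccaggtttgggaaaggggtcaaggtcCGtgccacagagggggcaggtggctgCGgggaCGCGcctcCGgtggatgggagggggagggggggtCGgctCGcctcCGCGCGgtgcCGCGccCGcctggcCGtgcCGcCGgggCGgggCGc
Neo1: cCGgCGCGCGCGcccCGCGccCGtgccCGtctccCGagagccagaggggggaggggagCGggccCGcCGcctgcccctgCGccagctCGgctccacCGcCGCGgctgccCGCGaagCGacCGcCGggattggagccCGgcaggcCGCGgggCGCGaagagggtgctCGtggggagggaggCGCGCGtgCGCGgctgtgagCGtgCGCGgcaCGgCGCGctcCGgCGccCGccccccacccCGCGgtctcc

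These 4 starts fell in HFD-RD macrophages. The Cd209d region (chr8:3878321-3878889) had 31.0 and 29.6 normalized counts in the HFD-RD libraries, against 77.7, 90.5 and 86.8 in the HFD libraries (log2 change -1.46 ± 0.18, SE; limma adjusted p = 0.00371). Its CpG-poor relative Cd209f (chr8:4105385-4106121) had 38.3 and 20.4 normalized counts in HFD-RD, against 53.3, 59.2 and 53.3 in HFD (-0.96 ± 0.24; limma adjusted p = 0.0201). In both lectin genes the groups did not overlap, but only for Cd209d did the test also pass with either HFD-RD library alone. Cd209 genes are similar neighbours that can share reads, so the share of each is uncertain. In bulk samples of sorted cells, fewer cells of a type and less accessible chromatin per cell cannot be told apart. At the CpG-rich Kif21a start (chr15:91049348-91049985) the values were 32.8 and 34.3 in HFD-RD and 98.9, 106 and 116 in HFD (-1.64 ± 0.21; limma adjusted p = 0.00371). At the Neo1 start (chr9:59035860-59037146) they were 60.2 and 72.2 in HFD-RD and 164, 174 and 209.8 in HFD (-1.45 ± 0.20; limma adjusted p = 0.00371). At Kif21a and Neo1 each HFD-RD library lay below every HFD library. The measured Kif21a region ends at base 91049985, so most of the bases printed for Kif21a, with many of their CpG, lie outside it.

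Depth differed between the libraries. Reads within the deposited regions numbered 889422 and 1479141 in the HFD-RD libraries and 1523146 to 2807495 in the HFD libraries, with a median of 71 and 127 reads per region in HFD-RD and 140 to 270 in HFD. A single region of 35488 bases near Mir101c (chr9:3000575-3036062) held 14.3% and 9.95% of the signal in HFD-RD and 5.49% to 7.25% in HFD. The sorted identity could not be checked in these files, since 0 of 9 macrophage marker genes fixed for this purpose had a region in these tables of selected regions.

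Across all regions 603 were higher (10.2%) and 757 lower (12.8%) in HFD-RD than in HFD macrophages, 23.1% in either direction (limma on log2(normalized count + 1), Benjamini–Hochberg adjusted p of 0.05 or less). Changes were moderate, with log2 values of 0.54 to 1.75 for the higher regions (median 0.86) and of -1.88 to -0.53 for the lower ones (median -0.84). Of these, 191 higher and 209 lower regions changed by 1 or more. The called regions lay near 1133 of 3814 assigned genes. In 141 of the 159 genes with 2 or more called regions all of these moved in 1 direction. Both HFD-RD libraries lay outside the range of the HFD libraries in 603 of the higher and 756 of the lower calls, against 27.9% of all regions above that range and 31.6% below it, 59.5% in all. Nearly every call thus has groups that do not overlap, so this is no separate support where it is named for a called region. In the authors' deposited table of 75 regions, whose fold change was read as HFD over HFD-RD, 42 values were below 0 and 33 above 0. The comparison and its direction were assigned to this table from the same values, so its signs are no separate evidence.

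The 2 HFD-RD libraries did not carry these calls equally. With HFD-RD replicate 1 as the only library of its group 525 regions were higher (8.9%) and 510 lower (8.65%), and with replicate 2 as the only one 33 were higher (0.56%) and 119 lower (2.02%). Replicate 1 is the shallowest of the 5 libraries. It had the larger change in 488 of the 603 higher regions (80.9%) and in 448 of the 757 lower regions (59.2%). Among the higher regions 388 passed with replicate 1 alone and not with replicate 2 alone, 2 the other way round, 182 with neither and 31 with each. Among the lower regions the counts were 353, 38, 302 and 64. A library alone is assumed to vary like those of the other groups. All 1360 calls had both HFD-RD libraries on the same side of the HFD mean. This is no separate support, since nearly every call has groups that do not overlap.

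Counts also moved with the HFD libraries. Without HFD replicate 1, 2 or 3 there were 223, 400 or 325 higher regions and 271, 503 or 393 lower ones. The balance of directions depended on the scaling between libraries: 44.3% of the calls were higher with the authors' scaling, 18.5% when each library was given the same total (361 higher, 1588 lower) and 29.0% when the region near Mir101c was left out of that total (478 higher, 1172 lower). These scalings shifted the median log2 change of all regions, -0.05, by -0.21 and -0.11.

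**Figure D1:**
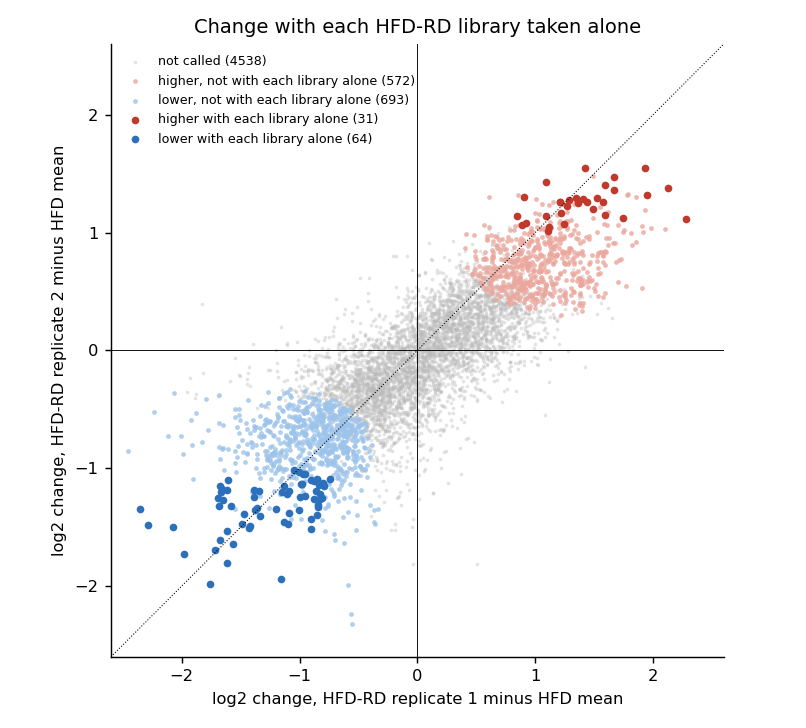
Log2 change of every region with HFD-RD replicate 1 as the only HFD-RD library (x axis) and with replicate 2 as the only one (y axis), both against the mean of the same 3 HFD libraries, which couples the axes. Each point is a region: dark red and dark blue mark the 31 higher and 64 lower regions that passed with each library alone, pale colours the other calls and grey the regions not called. Most pale red points lie below the dotted line of equal change, on the side of the larger change in replicate 1.

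The 31 higher regions that passed with each HFD-RD library alone (0.526% of all regions) lie near 31 genes, and the 64 lower ones (1.09%) near 60 genes, 95 regions in all (1.61%), and are called stable below. Their median log2 change was 1.32 and -1.27. With replicate 1 or 2 alone the medians were 1.36 and 1.26 for the higher and -1.14 and -1.26 for the lower regions, which had been chosen for passing with each. Single regions still differed between the replicates, as near Gm21379, with 2.28 with replicate 1 alone and 1.12 with replicate 2 alone, and inside Pou2af1, with -2.36 and -1.34. Of the 95, 30 higher and 61 lower ones belong to the 403 regions of the tables read as holding this comparison. Read numbers behind them were low in places, with 5 to 355 reads in HFD-RD replicate 1 and 12 to 648 in replicate 2. With replicate 2 alone every one of these regions passed the threshold by little, so the word stable marks a set at its edge. Passing with each library alone rested on all 3 HFD libraries: when any of them was left out, 0 higher and 0 lower regions still passed limma's adjusted threshold in both tests, while 275 to 398 higher and 350 to 547 lower ones had an unadjusted p under 0.05 in all fits (433 and 576 with all libraries). In a looser count, 79 higher and 76 lower calls changed by 1 or more on the log2 scale with each library alone.

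Some of the largest stable increases lay in or near genes of metabolic enzymes. Pgam1 encodes a phosphoglycerate mutase of glycolysis, and a region inside it (chr19:41916704-41917423) had 261 and 228 normalized counts in the HFD-RD libraries, against 75.4, 98.7 and 72.2 in the HFD libraries. Its log2 change was 1.57 ± 0.20 (SE; limma adjusted p = 0.00371). Hsd11b1 makes active glucocorticoid from its inert precursor, and a region inside it (chr1:193242026-193243303) had 458 and 401 in HFD-RD and 132, 166 and 156 in HFD (1.498 ± 0.21; limma adjusted p = 0.004). Upstream of Pygl, a glycogen phosphorylase (chr12:70251113-70252025), the values were 269.9 and 175 in HFD-RD and 79.5, 82.3 and 78.2 in HFD (1.43 ± 0.22; limma adjusted p = 0.00554). In these 3 regions every HFD-RD library was above every HFD library, with the widest gap between the HFD-RD replicates at Pygl.

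Other stable increases are given by the known role of the nearest gene, chosen after the values were seen. Vipr2 is a receptor of vasoactive intestinal peptide, and a region inside it (chr12:116137970-116139543) had 409 and 313 normalized counts in HFD-RD and 104, 132 and 88.5 in HFD (1.74 ± 0.23; limma adjusted p = 0.00371). Panx1 forms a membrane channel that releases ATP, and its region (chr9:15036862-15038209) had 294 and 319 in HFD-RD and 103, 127 and 98.9 in HFD (1.48 ± 0.19; limma adjusted p = 0.00371). The death-associated protein kinase gene Dapk1 held a region (chr13:60659781-60661280) with 575 and 466 in HFD-RD and 199, 159 and 186 in HFD (1.52 ± 0.20; limma adjusted p = 0.00371). All 3 were higher in either HFD-RD library than in any HFD library, as were all 603 higher calls. Smaller increases of the same stability lay near Bst1, an enzyme of the cell surface that uses NAD (1.23), near Slc44a2, a choline transporter-like protein (1.28), and near Naip2, a sensor of the inflammasome whose gene family shares sequence (1.23). Among regulators of transcription, the regions assigned to Lmo4, a LIM-domain cofactor, and Bhlhe41, a basic helix-loop-helix repressor, changed by 1.42 and 1.11. They lie downstream, 95368 and 8340 bases from the gene starts.

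Of the 8 largest stable increases, 3 lie in repeated sequence or beside multicopy genes and are uncertain, since reads from near-identical copies are shared. These are the regions near 6820431F20Rik (chr8:20328610-20330085), near Gm21379 on the Y chromosome (chrY:11857839-11858452) and near Dux, a tandem array (chr10:58227403-58228385). Their HFD-RD values were 193 and 115 normalized counts near 6820431F20Rik, 259 and 115 near Gm21379 and 162 and 105 near Dux, against HFD values of 41.5, 33.7 and 58.5 near 6820431F20Rik, 49.7, 51.8 and 55.9 near Gm21379 and 42.5, 36.2 and 45.6 near Dux. HFD-RD replicate 1 was the highest library at all 3. Their log2 changes were 1.75 ± 0.27, 1.70 ± 0.28 and 1.64 ± 0.23. Of the 9 deposited regions on the Y chromosome 7 were higher and 0 lower, and of the 10 on unplaced or unlocalized contigs 6 were higher and 0 lower, against 10.2% higher of all regions. These 19 regions held 13.1% and 9.16% of the signal in the HFD-RD libraries and 4.81% to 6.52% in the HFD libraries. Whether a different share of reads from repeated sequence bears on the other increases was not tested.

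**Figure D2:**
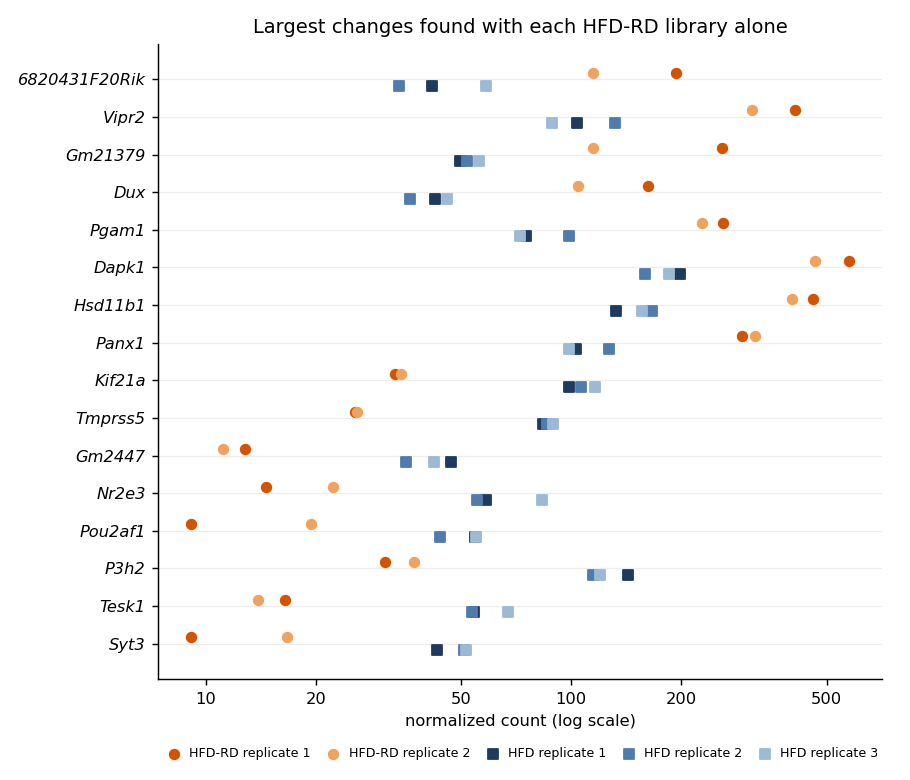
Normalized counts (x axis, log scale) in each library for the 8 largest increases and 8 largest decreases that passed with each HFD-RD library alone, 1 region per gene (rows). Circles are the 2 HFD-RD libraries, drawn above squares for the 3 HFD libraries; in every row the circles lie clear of the squares, and the circles lie farthest apart at Gm21379 and Pou2af1.

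Among the stable decreases were regions upstream of chemokine genes. In a region 24027 bases upstream of Ccl2, the monocyte attractant (chr11:82011544-82012565), the HFD-RD libraries had 146 and 202 normalized counts, against 452, 489 and 453 in the HFD libraries (-1.43 ± 0.20, SE; limma adjusted p = 0.00373). Cxcl13 attracts B cells, and 3 of its 4 deposited regions, all upstream, were lower in HFD-RD. The middle one of these, 42929 bases from the gene's start (chr5:95914022-95914929), had 52.9 and 58.3 in HFD-RD and 145, 131 and 144 in HFD (-1.32 ± 0.18; limma adjusted p = 0.00371). Each HFD-RD library was well below the lowest HFD library at both genes, and 2 of the Cxcl13 regions passed with each library alone. Upstream of Ear4, an eosinophil-associated ribonuclease of a family of similar genes, the values were 43.8 and 57.4 in HFD-RD and 128, 146 and 145 in HFD (-1.46 ± 0.20; limma adjusted p = 0.00371). The Mgl2 region (chr11:70121116-70121670), beside a galactose-binding C-type lectin of alternatively activated macrophages, had 62.01 and 50.0 in HFD-RD and 128, 113 and 96.3 in HFD (-0.99 ± 0.20; limma adjusted p = 0.00942).

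The largest stable decreases lay elsewhere. P3h2 encodes a collagen prolyl 3-hydroxylase, and its largest change, inside the gene (chr16:26082718-26083396), was -1.85 ± 0.19 (limma adjusted p = 0.00188), with 31.0 and 37.0 normalized counts in HFD-RD and 143, 114 and 119 in HFD. Inside Tesk1, a testis-associated kinase gene (chr4:43447079-43447802), the values were 16.4 and 13.9 in HFD-RD and 54.2, 53.5 and 67.1 in HFD (-1.87 ± 0.19; limma adjusted p = 0.00188). Inside Tmprss5, a membrane serine protease gene (chr9:49111253-49111788), they were 25.5 and 25.9 in HFD-RD and 83.5, 85.6 and 89.4 in HFD (-1.71 ± 0.18; limma adjusted p = 0.00188). These 3 had the smallest adjusted p of the comparison, and the replicates of each group lay close together. Upstream of Syt3, a synaptotagmin gene (chr7:44382600-44382996), the values of 9.12 and 16.7 in HFD-RD rest on 5 and 18 reads, against 42.9, 51.0 and 51.6 in HFD (-1.88 ± 0.28; limma adjusted p = 0.00438).

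Several regulators had low values with little depth behind them. Inside Pou2af1, a coactivator known from B cells (chr9:51215415-51215783), the 9.12 and 19.4 normalized counts in HFD-RD rest on 5 and 21 reads, against 54.6, 43.6 and 55.0 in HFD (-1.85 ± 0.27; limma adjusted p = 0.00438). In a region 220120 bases upstream of Nr2e3, a nuclear receptor known from photoreceptors (chr9:60180779-60181226), the values were 14.6 and 22.2 in HFD-RD and 58.3, 55.1 and 83.4 in HFD (-1.78 ± 0.27; limma adjusted p = 0.00469). Inside the predicted gene Gm2447 (chr3:52756331-52756636) they were 12.8 and 11.1 in HFD-RD and 47.0, 35.4 and 42.1 in HFD (-1.71 ± 0.21; limma adjusted p = 0.00371). In each of these the HFD-RD values stayed under every HFD value. Other decreases that passed with each library alone were assigned to Irs1, an adaptor of insulin signalling (-1.55), Mki67, the gene of the proliferation marker Ki-67 (-1.16), Npy, a neuropeptide (-1.35), Cyp2r1, a vitamin D 25-hydroxylase (-1.18), and Scube1 (-1.41). The Npy region lies 120315 bases from the gene's start. The 16 regions in the plot of normalized counts, which were chosen for passing with each HFD-RD library alone, also kept their direction and their call in the other alternatives in which they could be tested.

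Some genes changed at many regions at once. Of the 8 regions of P3h2 7 fell, from -0.66 to -1.85, and 3 of these passed with each library alone, among them the one over the gene's start (chr16:26104075-26106706; 272 and 244 normalized counts in HFD-RD, 561, 571 and 485 in HFD). Lpar1, a receptor of lysophosphatidic acid, fell at 6 of 6 regions. The one 49499 bases from its start (chr4:58504399-58505198) had 78.4 and 84.2 in HFD-RD and 235, 245 and 138 in HFD (-1.28 ± 0.27; limma adjusted p = 0.0102), and 1 of the 6 passed with each library alone. Zbtb7c, a zinc-finger repressor, fell at 5 of 5 regions by similar amounts, with a median change of -0.83, and none of them passed with each library alone. Fgf9, a fibroblast growth factor, had 4 of 7 regions lower, the nearest of them 250465 bases from the gene's start. Regions of 1 gene share its neighbourhood and are not independent of each other. The 6 regions assigned to Zfy1 on the Y chromosome all rose, with a median of 1.20, but the nearest of them lies 534239 bases downstream of it in sequence whose copies may share reads; none passed with each library alone.

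Place relative to the gene separated the directions. Of the 314 regions over a gene's start 114 were lower (36.3%) and 4 higher (1.27%), with a median log2 change of -0.49, against 12.8% lower, 10.2% higher and a median of -0.05 among all regions. The 4 higher ones, chosen after their values were seen, lie at Gimap1, Mefv, Dux and Slc39a4. Inside genes or over their ends 251 of 2114 regions were higher (11.9%) and 219 lower (10.4%). More than 100 kb from a gene 20.5% of the downstream and 19.5% of the upstream regions were lower. The median over gene starts was -0.55 and -0.44 with HFD-RD replicate 1 or 2 alone, and -0.70 and -0.60 under the other scalings. The count of lower starts was 12 with HFD-RD replicate 2 alone, 51 without HFD replicate 1 and 60 without HFD replicate 3. Gene starts took 4.05% and 4.96% of the signal of the HFD-RD libraries and 6.84% to 6.97% of that of the HFD libraries. The largest region near Mir101c moved the other way in the same libraries, and its part in this result was not tested.

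**Figure D3:**
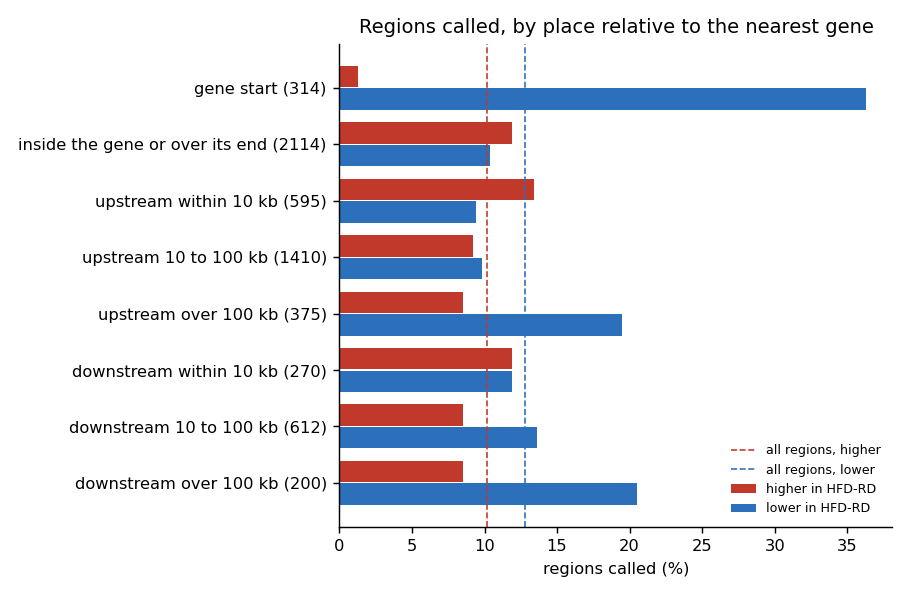
Percent of regions called higher (red) and lower (blue) in HFD-RD than in HFD macrophages, by place relative to the nearest gene, with the number of regions in parentheses; dashed lines give the share of all 5898 regions, and the 8 regions with no gene are not drawn. Gene starts stand out with 36.3% lower and 1.27% higher.

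Most of the gene starts that fell were CpG-rich, unlike those of the lectin genes. RefSeq promoters (250 bases before to 50 after the start) were matched to 210 of the 314 regions, which hold the promoter's start but not always all its bases. They held a median of 27 CpG and 69.0% G and C in the 85 matched starts that were lower, and 17 CpG and 62% in the 123 not called. Over all 32851 RefSeq promoters of the table the medians were 7 CpG and 52.7%. At least 20 CpG were found in 71.8% of the lower starts, 41.5% of those not called and 26.5% of all promoters. Besides Kif21a and Neo1, the starts of Prima1 (33 CpG, a membrane anchor of acetylcholinesterase), Scube1 (32) and Ncam2 (41, a neural cell adhesion molecule) passed with each library alone. The promoters of Cd209a, Cd209d and Cd209f held 1, 3 and 2 CpG in the 300 bases.

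Motifs were searched in these promoters on both strands, each without regard to overlap with another. GGGGCGGGG, a letter string of KLF and SP factors, was in 24.7% of the lower starts, 23.6% of those not called and 11.4% of all promoters. TGANTCA, of AP-1, was in 3.53%, 4.07% and 7.81%, and TTGCNNAA, of C/EBP factors, in 3.53%, 10.6% and 10.8%. No other of the 16 motifs was in more than 5% of the lower starts except CAGGTG, an E-box, which was in 18.8%, 15.4% and 20.2%. A match is a string of letters and not a bound site. In the bases printed above, Cd209f holds the AP-1 and a MEF2 string, Kif21a the KLF and CAGGTG strings, and Cd209d and Neo1 none of the 16.

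Regions near genes of the antioxidant response and of heme breakdown were often higher and never lower in HFD-RD macrophages. This list of 33 genes was drawn up after the values had been seen and gets no test. It had 26 regions at 15 genes, of which 13 were higher (50.0%, against 10.2% of all regions) and 0 lower, with a median log2 change of 0.71. The median was 0.75 and 0.67 with HFD-RD replicate 1 or 2 alone, and 0.50 and 0.59 under the other scalings. Only 4 of the 13 passed with HFD-RD replicate 2 alone. Inside Hmox1, the heme oxygenase gene (chr8:75099275-75100314), the values were 139 and 102 normalized counts in HFD-RD and 49.2, 46.9 and 40.4 in HFD (1.37 ± 0.20; limma adjusted p = 0.00438). Upstream of Cat, the catalase gene (chr2:103505290-103506492), they were 204 and 187 in HFD-RD and 74.97, 65.8 and 90.3 in HFD (1.34 ± 0.19; limma adjusted p = 0.00438). Both genes were more accessible in either HFD-RD library than in any HFD library.

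Gclc and Gclm encode the subunits of the enzyme that starts glutathione synthesis. Upstream of Gclc (chr9:77746283-77746909) the HFD-RD libraries had 215 and 207 and the HFD libraries 85.8, 85.6 and 80.8 (1.32 ± 0.19; limma adjusted p = 0.00438). Inside Gclm (chr3:122250075-122251538) the values were 169.6 and 158 in HFD-RD and 72.7, 77.3 and 84.3 in HFD (1.06 ± 0.18; limma adjusted p = 0.00706). These 2 regions, with those at Hmox1 and Cat, are the 4 of the list that passed with each library alone, and the gap between the HFD-RD replicates was widest at Hmox1. Slc7a11, the cystine importer that feeds the same pathway, had 3 of 5 regions higher. The 2 regions at Pgd, which makes NADPH in the pentose phosphate pathway, rose by 1.24 and 1.03 on the log2 scale.

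Regions near resident macrophage genes were more often lower than higher. Of the 27 regions of this list 9 were lower (33.3%, against 12.8% of all regions) and 2 higher, with a median log2 change of -0.40. The median was -0.32 and -0.48 with HFD-RD replicate 1 or 2 alone, and -0.61 and -0.52 under the other scalings. Lower calls numbered 4 without HFD-RD replicate 1, 5 without HFD-RD replicate 2 and 3 without HFD replicate 1 or 2. The list's lower regions at Cd209d and Lyve1 lie over gene starts, and 36.3% of all gene-start regions were lower. The part of this in the list's share was not tested. After Cd209d, the second largest change was inside Igf1, an insulin-like growth factor (chr10:87889820-87890258), with 21.9 and 56.5 normalized counts in HFD-RD and 70.5, 83.9 and 107 in HFD (-1.26 ± 0.33; limma adjusted p = 0.022). Its HFD-RD replicates stood far apart, and the change was -1.92 with replicate 1 alone and -0.59 with replicate 2 alone.

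Other members of the resident list are given by their values. Cd163, the hemoglobin scavenger receptor, had 2 lower regions inside the gene, of which chr6:124311014-124312345 had 126 and 66.7 normalized counts in HFD-RD and 222, 267 and 145 in HFD (-1.15 ± 0.30; limma adjusted p = 0.0216). The start of Lyve1, a hyaluronan receptor (chr7:110862623-110863479), had 106 and 135 in HFD-RD and 257, 233 and 251 in HFD (-1.04 ± 0.19; limma adjusted p = 0.00781), and did not pass with HFD-RD replicate 2 alone (limma adjusted p = 0.0624). Both genes were lower in each HFD-RD library than in any HFD library. Pf4, a chemokine of platelets and macrophages, and Fcna, a ficolin, fell by 0.86 and 0.65 on the log2 scale. The 2 members that rose were Cd5l, a lipid-binding protein of resident macrophages (0.86), and Klf4, a zinc-finger factor (0.71).

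**Figure D4:**
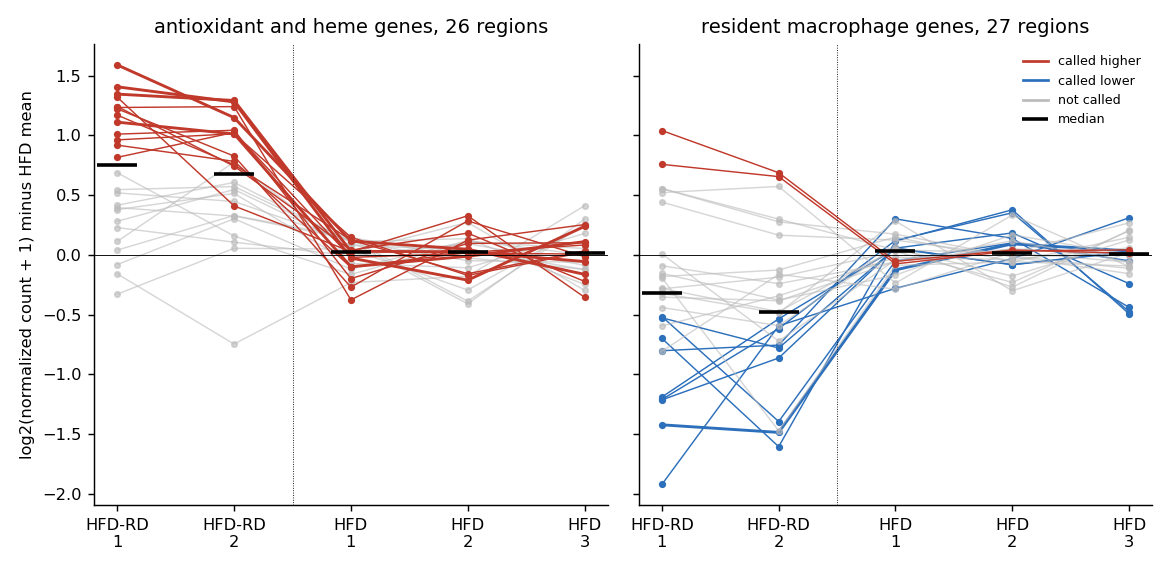
Log2 value of each region relative to the mean of the 3 HFD libraries (y axis) in each library (x axis), for the antioxidant and heme list (26 regions) and the resident macrophage list (27 regions). Lines join the points of 1 region, thick ones those that passed with each HFD-RD library alone, red and blue mark higher and lower calls, and black bars are medians; the medians of the HFD-RD libraries are 0.75 and 0.67 for the first list and -0.32 and -0.48 for the second, and those of the HFD libraries lie near 0.

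Regions near inflammatory genes were called at about the share of all regions. Of 26 regions of cytokines, chemokines and NF-kB components 3 were higher and 3 lower, 11.5% each, against 10.2% higher and 12.8% lower of all regions, with a median of 0.01. Ccl2, described above, had the largest change. Tnfaip3 encodes A20, an inhibitor of NF-kB. A region downstream, 74333 bases from its start (chr10:18941324-18942033), was higher in HFD-RD, with 212 and 114 normalized counts, against 96.6, 80.6 and 67.9 in HFD (0.93 ± 0.27; limma adjusted p = 0.0305). Another one, upstream of Tnfaip3, was lower (-0.65), and its other regions, at 0.34 and 0.05, were not called. Near Il12a, a subunit of interleukin 12, and Nfkbiz, an NF-kB regulator, the changes were 0.83 and 0.57, and near Socs3, an inhibitor of cytokine signalling, -0.63. The other Nfkbiz regions, at -0.48 and -0.27, were not called. Leaving out any of the 3 HFD libraries gave at most 1 higher and 1 lower call in this list. Fewer were also called with HFD-RD replicate 2 alone. With HFD-RD replicate 1 alone the calls were partly other regions, as near Cxcl1, which changed by 0.83 there and 0.49 with both HFD-RD libraries.

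Of 11 regions of Toll-like receptor signalling 2 were higher (18.2%, against 10.2% of all regions) and 0 lower (against 12.8%), too few to set the list apart from all regions. In a region 49072 bases upstream of Tlr5, the flagellin receptor (chr1:182905716-182906370), the values were 215 and 147 normalized counts in HFD-RD and 94.4, 71.6 and 86.0 in HFD (1.08 ± 0.24; limma adjusted p = 0.0121). Inside Ikbkb, a kinase that activates NF-kB (chr8:22699081-22699867), they were 195 and 158 in HFD-RD and 128, 88.0 and 84.3 in HFD (0.83 ± 0.25; limma adjusted p = 0.0371). Both HFD-RD libraries were above the HFD libraries at each gene. The higher calls numbered 0 without HFD-RD replicate 1 and 1 without HFD-RD replicate 2, HFD replicate 2 or HFD replicate 3.

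Regions near genes of blood vessel growth were also called at about the share of all regions, with 3 higher and 3 lower of 25 (12.0% each, against 10.2% higher and 12.8% lower of all regions) and a median of -0.09. In a region 37619 bases upstream of Vegfa, the vascular endothelial growth factor (chr17:46069988-46070790), the HFD-RD libraries had 465 and 383 normalized counts and the HFD libraries 233, 205 and 182 (1.03 ± 0.21; limma adjusted p = 0.0102). Vegfa was higher in both HFD-RD libraries, but the test with replicate 2 alone gave a limma adjusted p of 0.0862. Sema4d, a semaphorin, rose at 2 regions, the larger of which (chr13:51748076-51748487) had 122 and 99.98 in HFD-RD and 43.8, 82.3 and 37.0 in HFD (1.10 ± 0.34; limma adjusted p = 0.0401). The other Sema4d regions, at 0.27 and 0.29, were not called. Igf1 counts in this list too and fell, as did regions near Efnb2, an ephrin of arteries (-0.82), and Mmp2, a matrix protease (-0.61). The other Efnb2 regions, at -0.27, -0.21 and -0.09, were not called. Without HFD-RD replicate 1 there were 0 calls in either direction, and without each of the other 4 libraries 1 or 2 higher and 0 or 1 lower calls.

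Regions near transcription factors that answer to signals were more often higher than lower. Of 19 regions of AP-1 and related genes 7 were higher (36.8%, against 10.2% of all regions) and 1 lower (5.26%, against 12.8%), with a median of 0.55, which was 0.53 and 0.33 with HFD-RD replicate 1 or 2 alone. Of the regions 42228 to 159301 bases upstream of Jun, an AP-1 subunit, 3 of 3 rose, by 0.71 to 0.78. Inside Bach2, a repressor of the basic leucine zipper family (chr4:32378394-32378877), the values were 137 and 79.6 normalized counts in HFD-RD and 59.6, 57.6 and 36.1 in HFD (1.05 ± 0.30; limma adjusted p = 0.0287), with replicate 1 well above replicate 2. The other Bach2 regions, at 0.05, 0.25 and 0.32, were not called. Upstream of Bach1, a relative of Bach2 and a repressor of heme and antioxidant genes, the change was 0.68. A region downstream of Bach1, at -0.53, was not called. Upstream of Egr2, an early growth response factor (chr10:67523895-67524396), the values were 67.5 and 104 in HFD-RD and 149, 139.9 and 148 in HFD (-0.79 ± 0.22; limma adjusted p = 0.026). Higher calls in this list numbered 0 without HFD replicate 1, 1 without HFD replicate 3 and 3 with equal totals. Fewer than 7 were also found with either HFD-RD library alone, and these were not all among the 7.

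Genes of lipid-associated macrophages, such as those of lysosomes and lipid uptake, had few called regions. Of 48 regions 3 were higher (6.25%, against 10.2% of all regions) and 0 lower (against 12.8%), with a median of 0.27. Inside Ctsd, a lysosomal protease gene (chr7:142383763-142385313), the values were 301 and 366 normalized counts in HFD-RD and 203, 166 and 209.8 in HFD (0.79 ± 0.20; limma adjusted p = 0.0192). Inside Cd9, a tetraspanin gene (chr6:125485565-125486047), they were 73.0 and 62.03 in HFD-RD and 42.5, 48.5 and 37.0 in HFD (0.65 ± 0.21; limma adjusted p = 0.0451), and the third call lay inside Cd36, a scavenger receptor for fatty acids (0.57). The calls numbered 0 without HFD-RD replicate 1 or 2, without HFD replicate 1 or 2 and with equal totals, and 1 without HFD replicate 3.

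Of 8 regions of alternative activation 3 were lower (37.5%, against 12.8% of all regions) and 0 higher (against 10.2%). Besides Mgl2 they lay near Retnla, a resistin-like protein, whose downstream region (chr16:48853629-48854358) had 106 and 49.1 normalized counts in HFD-RD and 153, 123 and 136 in HFD (-0.91 ± 0.29; limma adjusted p = 0.0426). Without HFD-RD replicate 2 or any 1 of the HFD libraries 1 of the lower calls passed. The remaining lists had at most 1 call in each direction. Downstream of Scd1, a fatty acid desaturase (chr19:44387187-44387592), the values were 175 and 129 in HFD-RD and 57.8, 72.4 and 43.0 in HFD (1.39 ± 0.25; limma adjusted p = 0.00752). Among genes of glucose use Pfkl, a phosphofructokinase, rose (0.83), and the start of Pdk4, whose kinase restrains glucose oxidation, fell (-0.88). Among core regulators of macrophages a region inside Irf8 rose (0.66), while its other regions, at 0.14 and -0.47, were not called. A region 175761 bases upstream of Mef2c fell (-0.61). Regions near Ifngr2, an interferon gamma receptor chain (0.72), and Tgfbr1, a receptor of TGF-beta (0.66), rose, and 0 of 7 regions of migration and growth factor receptors were called.

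**Figure D5:**
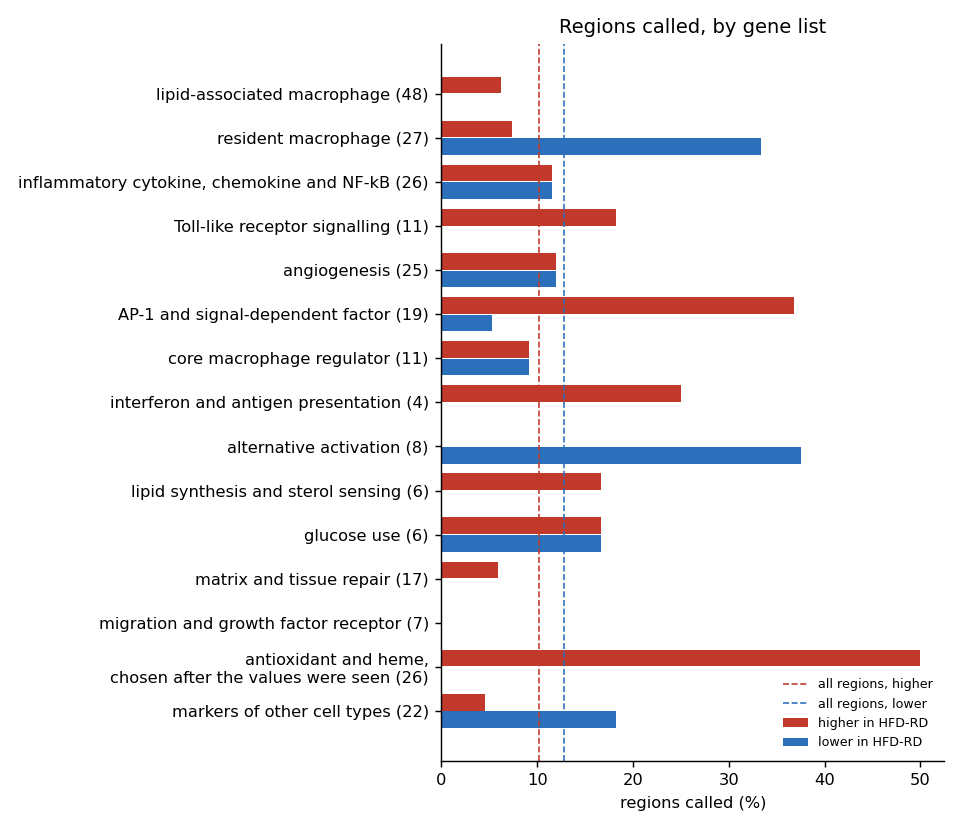
Percent of the regions of each gene list (rows, with the number of regions in parentheses) called higher (red) and lower (blue) in HFD-RD than in HFD macrophages; dashed lines give the shares of all 5898 regions. The antioxidant and heme list, chosen after the values were seen, has the highest share of higher calls, 50.0%, and several lists rest on fewer than 10 regions.

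In some called regions the HFD-RD replicates stood far apart. Inside Papss1, which makes the sulfate donor of the cell (chr3:131618450-131618976), HFD-RD replicate 1 had 177 normalized counts and replicate 2 had 67.6, against 44.7, 43.6 and 51.6 in HFD. In the Fgf9 region chr14:58322386-58322883 they had 52.9 and 14.8, against 95.7, 59.2 and 84.3 in HFD, and in Hectd2os (chr19:36641106-36641960) 14.6 and 50.0, against 67.7, 63.4 and 87.7 in HFD. At Fgf9 it was replicate 2 that was lower, and at Hectd2os replicate 1. The Zfy1 region farthest from its gene (chrY:140581-141088) had 295 and 126 in HFD-RD and 89.4, 79.0 and 90.3 in HFD. None of these 4 passed with each library alone.

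Markers of other cell types were compared in the same libraries. Markers of neutrophils, dendritic cells, T cells, B cells, endothelial cells and fibroblasts had 22 regions, of which 1 was higher (4.55%, against 10.2% of all regions) and 4 lower (18.2%, against 12.8%). Their summed value was 4030 and 3920 normalized counts in HFD-RD and 4020 to 4100 in HFD. As a share of each library's signal it was lower in HFD-RD, with 0.248% and 0.286%, against 0.304% to 0.323% in HFD. The decrease 161342 bases upstream of Cdh5, the endothelial cadherin (chr8:103940283-103941484), passed with each library alone, with 73.0 and 55.5 in HFD-RD and 142, 110.3 and 142 in HFD (-1.02 ± 0.21; limma adjusted p = 0.0097). Regions near Kdr, an endothelial receptor of VEGF (-0.83), Lef1, a T-cell factor (-0.86), and Cd209a, a lectin of dendritic cells (-0.64), fell, and 1 inside Xcr1, a chemokine receptor of dendritic cells, rose (0.90). The 8 endothelial regions summed to 1630 and 1680 in HFD-RD and 1620 to 1760 in HFD. They took 0.101% and 0.122% of the signal in HFD-RD and 0.129% to 0.133% in HFD. None of the markers of monocytes, NK cells, mast cells and eosinophils, or adipocytes had a region, and the part of other cells in the changes above was not tested.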

How the data were processed

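The deposited tables hold ATAC-seq signal per region as normalized counts made by the authors, which from the values are reads divided by 1 size factor per library (all values are whole multiples of 1 step, tolerance 1e-06). Per the submitters' processing notes, Picard, deepTools, MACS2 2.0.10, DESeq2 and the build GRCm38 were used; their roles are not stated, and the aligner is not given in the sources used here. The authors' deposited log2 fold changes, p-values and Wald score belong to 1 comparison per table that the headers do not name. It was read from the group means, and the deposited adjusted p-values reach at most 0.05 and the absolute fold changes at least 1 on the log2 scale. The 7 tables were stacked to 5898 regions, with 0 per-sample columns left unused.

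Values were transformed as log2(normalized count + 1), and 0 regions had a mean under the minimum of 10. limma 3.58.1 in R 4.3.3 was fitted to the 7 libraries of 3 groups (4 residual and 7.2 prior degrees of freedom), with HFD-RD minus HFD as the contrast and Benjamini–Hochberg adjustment over all regions. The fit was repeated with each HFD-RD library alone. Fold changes on this scale understate those of low regions. Counts were also simulated at the depths of these libraries, with 50 regions for each size of change. The test called 100% of regions with a change of 2 or -2, 84.0% of those with 1 or -1, and 8 of 5698 unchanged regions. The simulated counts had 1 spread for all regions and groups and no further difference between the HFD-RD libraries. The real libraries differ in both respects, so these shares are not error rates of the real comparison.

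Members and gene lists were chosen with earlier results of these data known, and the antioxidant and heme list after the values were seen. Regions are named by 4 rules: the 8 largest increases and decreases passing with each library alone, the 2 largest called changes per list, the 5 genes with most calls in 1 direction, and the 2 higher and 2 lower calls with the widest gap between the HFD-RD libraries. Other regions named for their gene's role were chosen after their values were seen. Promoters are from RefSeq (GRCm38.p6). Alternatives were other pseudocounts, minimum means, scalings and fits, the replicate number as a block, and leaving out each library.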

Additional observations from a re-analysis of the deposited data

How the results depend on the processing

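Higher and lower calls numbered 603 and 757. They were 361 and 1588 with equal totals, and 478 and 1172 when the region near Mir101c was left out of the totals. Leaving out 1 library gave 33 to 724 higher and 119 to 856 lower calls. With the replicate number as a block they numbered 180 and 241, and the block changed no direction. Deviations of same-numbered libraries correlated between -0.0716 and 0.0628. In a group of 2 libraries the deviations mirror each other, so these correlations cannot decide whether same-numbered libraries belong together. HFD replicate 3 has no partner of its number. The median log2 change of all regions with the block, 0.0137, equalled that without this library. Other pseudocounts, minimum means, the 2 diet groups alone, robust moderation and an intensity trend gave 582 to 724 higher and 733 to 871 lower calls.

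The 31 higher and 64 lower regions passing with each HFD-RD library alone were 83 and 199 with an intensity trend, 128 and 202 with the 2 diet groups alone, 39 and 307 with equal totals, 42 and 170 with these totals without the largest region, and 0 and 0 under the replicate block, where limma gave 243 and 314 regions an unadjusted p under 0.05 in all fits. Leaving out 1 library gave 0 to 128 higher and 0 to 202 lower. By a change of at least 1 with each library alone, a criterion chosen after seeing the data, they were 79 and 76. Lying outside the HFD range held for 603 and 756 of the calls. It is no separate criterion, since nearly every call meets it, as do 59.5% of all regions. No call changed direction in the alternatives run. Of the 65 regions named by rule 34 passed under the block and 26 without HFD-RD replicate 1. The cause of these differences was not tested. Count tests on reads (edgeR, DESeq2) were not run. Depth was lowest in HFD-RD replicate 1, with 889422 reads in regions, which limits the regions resting on few reads.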
